A study of Homo sapiens with 6 samples.

Results

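The enzymes of de novo purine synthesis were described here in xenograft tumors, as 10 genes of the 60671 annotated genes in the expression matrix (60930 features with the loci assembled outside the annotation). The members were listed by name and put in the order of the pathway, namely PRPS1, PRPS2, PPAT, GART, PFAS, PAICS, ADSL, ATIC, IMPDH2 and GMPS. All 10 were found and all 10 passed the filter on low values. MDA-MB-231 cells, a human triple-negative breast cancer line of WT genotype, had been injected orthotopically into mammary fat pads (the fourth pair) of female NOD/SCID/IL2Rγ-null (NSG) mice aged 6 to 8 weeks, a strain that lacks T, B and NK cells but keeps other host cells. RNA-seq was then performed on total RNA from the tumor core (TC, 3 samples) and the tumor margin (TM, 3 samples). Both groups carried the same cells and no further treatment, so region is the difference that the labels give. Expression was given as TPM, a length-corrected abundance of transcripts scaled to a total per sample, so levels of different genes can be set side by side. TPM keeps no read number, and the depth of each sample is unknown.

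De novo synthesis builds the purine ring on ribose phosphate. PRPP synthetase makes phosphoribosyl pyrophosphate (PRPP), PPAT commits it to the pathway as the amidotransferase of the first step, and GART, PFAS, PAICS, ADSL and ATIC carry the intermediate to inosine monophosphate (IMP), several of them with more than a single catalytic domain. IMP is then turned into AMP by adenylosuccinate synthase and ADSL, which acts again in this branch, or into GMP by IMP dehydrogenase and GMP synthetase. The salvage route reuses free bases instead, through HPRT1 and APRT, and rapidly dividing cells are known to draw heavily on the de novo route.

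Sequence around transcription starts was taken from RefSeq (GRCh38.p14, 250 bases before to 50 bases after each start). An entry was found for 8 of the 10 members, and ADSL and IMPDH2 had none. The windows were searched on both strands for CACGTG, the E-box hexamer bound by MYC and related factors, and for the GC box (GGGCGG, or CCGCCC on the other strand). No CACGTG overlapped a GC box in the sequences shown. Among all 35116 windows, 7.26% held CACGTG and 45% held a GC box. Among the members, 3 of 8 had CACGTG in a window (PPAT, PAICS and ATIC) and 8 of 8 had a GC box in a window. GART and PAICS have several starts, which gave 12 windows in all. Counted per window, as the shares over all windows are, 3 of 12 held CACGTG and 9 of 12 a GC box. No share per gene was taken over all genes. The PPAT window and a PAICS window hold the same CACGTG and the same 3 GC boxes, so these were counted for both. A match is a description of the letters and no measure of binding.

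PPAT and PAICS are neighbours on chromosome 4 and are read in opposite directions. Their nearest starts are 137 bases apart (56435615 for PPAT on the minus strand and 56435752 for PAICS on the plus strand). PAICS has other starts at 56410507 and 56436260. The stretch that the windows of the nearest starts share, chr4:56435566-56435801, is shown on the plus strand. A single CACGTG lies in both of these windows, at position 40 from the PAICS start and at position -182 from the PPAT start. The ATIC window, chr2:215311809-215312108 on the plus strand, is shown because it holds CACGTG at 2 positions (-46 and 29 from the start), which 0.664% of all windows do. The PFAS window, chr17:8249039-8249338 on the plus strand, belongs to the member with the widest difference between TC and TM and holds a single GC box. Capitals mark CACGTG and the GC boxes.
PPAT and PAICS shared stretch: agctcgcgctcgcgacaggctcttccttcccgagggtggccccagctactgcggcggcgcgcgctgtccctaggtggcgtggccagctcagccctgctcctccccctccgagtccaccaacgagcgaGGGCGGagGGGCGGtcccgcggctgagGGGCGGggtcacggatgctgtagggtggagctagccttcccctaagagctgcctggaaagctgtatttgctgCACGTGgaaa
ATIC: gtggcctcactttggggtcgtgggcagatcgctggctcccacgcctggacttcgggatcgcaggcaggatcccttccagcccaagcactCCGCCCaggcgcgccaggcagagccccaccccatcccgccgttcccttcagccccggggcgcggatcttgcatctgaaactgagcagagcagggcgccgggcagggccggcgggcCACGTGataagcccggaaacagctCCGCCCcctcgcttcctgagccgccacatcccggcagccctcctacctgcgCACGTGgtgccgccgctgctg
PFAS: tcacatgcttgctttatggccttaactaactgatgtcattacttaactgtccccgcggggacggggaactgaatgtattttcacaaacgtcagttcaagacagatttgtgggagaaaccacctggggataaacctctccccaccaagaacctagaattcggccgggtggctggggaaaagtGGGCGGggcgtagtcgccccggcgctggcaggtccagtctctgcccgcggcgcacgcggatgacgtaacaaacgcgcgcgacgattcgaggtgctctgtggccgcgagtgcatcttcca

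In GENCODE 29 (GRCh38) the 10 genes are protein-coding and lie on 7 chromosomes. PRPS1 and PRPS2 are on the plus strand of chromosome X (107628424 to 107651026 and 12791355 to 12824222). PPAT (56393362 to 56435615, minus strand) and PAICS (56435741 to 56464579, plus strand) are on chromosome 4. IMPDH2 (49024325 to 49029408, minus strand) and GMPS (155870536 to 155944026, plus strand) are on chromosome 3. GART is on chromosome 21 (33503931 to 33543491, minus strand), PFAS on chromosome 17 (8247618 to 8270491, plus strand), ADSL on chromosome 22 (40346500 to 40390463, plus strand) and ATIC on chromosome 2 (215311817 to 215349773, plus strand). Reads were aligned in an orientation mode, but whether genes were then counted by strand is not given in the sources used here, so reads from antisense genes, which cover 2.22% of the exonic bases of PPAT, 3.55% of those of GART (SON) and 3.35% of those of IMPDH2, may be held in these values. None of the 100-base stretches of PRPS1, PRPS2, GART, PFAS, ATIC and IMPDH2 recurred in transcripts of another gene.

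The 6 samples were first examined as a whole. The summed TPM was 1000000 in all samples but TM sample 3, which summed to 994381. The 259 loci assembled outside the annotation held 1574 to 2643 TPM in those 5 samples, with 203 to 214 loci above 0, but 21.1 TPM in TM sample 3, with 4 loci above 0, so its values may not have been made in the same way as the others. Markers of MDA-MB-231 such as VIM, CD44 and EGFR were present in every sample, and ESR1, PGR and CDH1, which this line lacks, did not exceed 0.36 TPM, while EPCAM, also listed as low in this line, was at 3.66 to 6.02 TPM. Skeletal muscle markers (11 of 12 found) summed to 4.45 to 8.34 TPM in TC, 194.6 in TM sample 1, 525.7 in TM sample 2 and 3.19 in TM sample 3. Fibroblast markers (8 of 8 found) summed to 65.7 to 224.3 TPM in TC and to 475.6, 1004 and 89.0 in TM samples 1, 2 and 3. Both lists were thus high in TM samples 1 and 2, while TM sample 3 was below the TC range for muscle and within it for fibroblasts. The 12 hypoxia genes summed to 3610 to 4592 TPM in TC and to 3146, 3316 and 4237 in TM samples 1, 2 and 3. The macrophage, endothelial, adipocyte and erythroid lists had sums of 96.0 to 112.3, 3.77 to 7.02, 0.20 to 0.77 and 0.29 to 6.93 TPM over the 6 samples. Most of the macrophage sum was CD68 (84.8 to 94.2 TPM). CSF1R measured 1.99, 2.32 and 3.0 TPM in core samples and 4.07, 9.12 and 3.10 TPM in margin samples, without overlap. All other macrophage markers, CD68 among them, had groups that overlapped. In bulk tissue, fewer cells of a type and less RNA per cell cannot be told apart. The host cells are mouse cells and the rows are human genes, so host transcripts count only where mouse reads align to human sequence. Whether the marker sums came from mouse or human RNA was not tested, and they are no measure of host cell content. The samples of a region came from separate mice per the study, and whether core and margin samples of the same number came from the same mouse is not stated.

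The expression levels of the enzymes spanned a wide range. IMPDH2, the IMP dehydrogenase isoform of dividing cells, had the highest mean (447.9 TPM over 6 samples) and PPAT had the lowest (9.24 TPM), a 48.5-fold span. IMPDH2 alone made up 38.1% to 47.3% of the summed TPM of the 10 enzymes in a sample. Behind it stood ATIC (148.1 TPM), ADSL (130.7), PAICS (86.2), PRPS1 (68.6), GART (61.2), GMPS (50.7), PRPS2 (30.1) and PFAS (21.9). Neighbours in this order were separated in all 6 samples, with ranges that did not overlap, for IMPDH2 over ATIC, ADSL over PAICS, GMPS over PRPS2 and PFAS over PPAT. The ranges of the other 5 neighbouring pairs overlapped. PRPS2 was above PFAS in 6 of 6 samples, and the remaining 4 pairs stood in this order in 5 of 6.

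**Figure D1:**
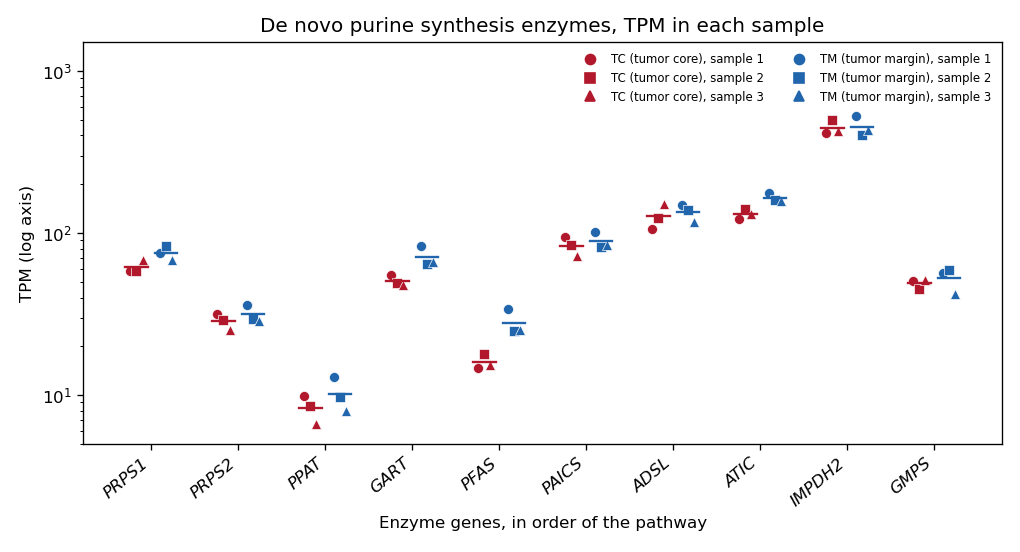
TPM of the 10 enzyme genes (log axis) in pathway order, with 1 point per sample, TC in red and TM in blue, and a bar at each group mean (n = 3). IMPDH2 lies above all others and PPAT below, and the TC and TM points separate for PRPS1, GART, PFAS and ATIC.

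The study sequenced both regions to examine how metabolism varies within the tumor, and the enzymes were compared between them. PFAS, GART, ATIC and PRPS1 had every TC value below every TM value. None of the 10 enzymes passed the test, with limma on log2(TPM + 1) and Benjamini-Hochberg adjustment over 13861 genes giving a smallest adjusted p of 0.102 (PFAS), where 0.137% of all genes tested were called. An unadjusted p under 0.05 was found for 3 of 10 enzymes (PFAS, GART and ATIC), all lower in TC, where 14.2% of all genes passed in that direction and 1.93% in the other, in which no enzyme passed. The groups did not overlap, with TC lower, for 4 of 10 enzymes and for 18.9% of all genes. All 10 log2 differences were under 0, as were 67% of all genes, but after median-of-ratios rescaling 5 of 10 were. The median of the enzymes was -0.19 and that of all genes -0.14, and 5 of 10 enzymes lay below the latter. Rescaling moved these medians to -0.025 and 0.021, with 5 of 10 enzymes again below the median of all genes. Without TM sample 3 none of the enzymes was called (smallest limma adjusted p = 0.104), and the medians were -0.30 for the enzymes and -0.19 for all genes. Without TM sample 1 they were -0.058 and -0.092.

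PFAS, the FGAM synthase that acts between the GART activities, stood furthest apart. It measured 14.7, 17.8 and 15.3 TPM in core samples 1, 2 and 3 and 33.8, 24.7 and 25.4 TPM in margin samples. Every TC sample was below every TM sample, and the TC mean was 57.1% of the TM mean (15.9 ± 1.65 against 27.9 ± 5.06 TPM, SD, n = 3). The log2 difference was -0.76 (SE 0.18, 95% interval -1.18 to -0.35, limma adjusted p = 0.102). Leaving out each sample in turn gave differences from -0.84 to -0.62, with -0.62 without TM sample 1 and -0.82 without TM sample 3, and rescaling by the median of ratios made it -0.59 (limma adjusted p = 0.234).

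GART, which carries the GAR synthetase, GAR formyltransferase and AIR synthetase activities, measured 55.3, 49.2 and 48.1 TPM in core samples and 83.4, 64.8 and 66.3 TPM in margin samples. The highest TC value lay under the lowest TM value. Its means were 50.9 ± 3.85 and 71.5 ± 10.3 TPM (SD, n = 3), a log2 difference of -0.48 (SE 0.15, 95% interval -0.81 to -0.14, limma adjusted p = 0.169). Rescaling by the median of ratios made it -0.30 (limma adjusted p = 0.369).

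ATIC, which adds the last carbon from formyl-tetrahydrofolate and closes the ring to IMP, measured 122.3, 140.7 and 131.6 TPM in core samples and 175.5, 160.4 and 158.4 TPM in margin samples. Its coefficient of variation was 7.0% in TC and 5.67% in TM, the latter the lowest of the 10 enzymes in TM. The difference was -0.32 (SE 0.12, 95% interval -0.59 to -0.054, limma adjusted p = 0.229), and rescaling by the median of ratios made it -0.15 (limma adjusted p = 0.700).

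PRPS1 and PRPS2, the PRPP synthetase isoforms that feed the pathway, lie on opposite arms of the X chromosome. PRPS1 measured 58.6, 58.4 and 67.8 TPM in core samples and 75.6, 83.2 and 68.3 TPM in margin samples. TC sample 3 and TM sample 3 differed by less than the spread within either group, so the separation of the groups was narrow (log2 difference -0.29, SE 0.14, limma adjusted p = 0.348). PRPS2 measured 31.7, 28.9 and 25.3 TPM in core samples and 36.2, 29.7 and 28.6 TPM in margin samples, with groups that overlapped (log2 difference -0.13, SE 0.16, limma adjusted p = 0.758). Its sign turned after median-of-ratios rescaling (0.043). PRPS1 exceeded PRPS2 in every sample, by 1.85, 2.02 and 2.67 times in TC and 2.09, 2.80 and 2.38 times in TM. The log2 ratio differed between regions by -0.16 (exact permutation p = 0.4, two-sided, 3 against 3, adjusted p = 0.4 over 3 ratios).

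PPAT, the committed and feedback-inhibited step, measured 9.80, 8.53 and 6.59 TPM in core samples and 12.9, 9.70 and 7.92 TPM in margin samples. These groups overlapped, and its coefficients of variation, 19.5% in TC and 24.9% in TM, were the largest of the 10 enzymes in either group (log2 difference -0.26, SE 0.24, limma adjusted p = 0.666). PAICS, which joins a carboxylase and the SAICAR synthetase in a single protein, measured 93.9, 83.8 and 71.9 TPM in core samples and 101.5, 82.1 and 84.0 TPM in margin samples (log2 difference -0.10, SE 0.15, limma adjusted p = 0.802; 0.076 when rescaled by the median of ratios). The pair, whose nearest starts are 137 bases apart, had very different levels, and the PAICS level is not split by start. PAICS exceeded PPAT 9.58, 9.82 and 10.9 times in TC and 7.86, 8.47 and 10.6 times in TM. The log2 ratio differed between regions by 0.18, with overlapping groups (exact permutation p = 0.3, two-sided, adjusted p = 0.4 over 3 ratios). The share of 100-base stretches that recur in pseudogene transcripts was 1.99% for PPAT and 0.37% for PAICS (1.42% for GMPS).

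ADSL, the lyase that acts before ATIC and again on the way to AMP, measured 106.1, 123.0 and 151.6 TPM in core samples and 148.4, 137.9 and 117.1 TPM in margin samples. The highest and the lowest of the 6 values were both in TC (log2 difference -0.092, SE 0.16, limma adjusted p = 0.840; 0.087 when rescaled by the median of ratios). Of its exonic bases 18.9% lie in AL022238.4, a gene annotated on the same strand, so reads could be split between them and its level is less certain than those of the other enzymes.

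IMPDH2 and GMPS lead from IMP to GMP. IMPDH2 measured 411.6, 498.2 and 423.4 TPM in core samples and 523.7, 400.8 and 430.1 TPM in margin samples. Both the highest and the lowest value were in TM, and the log2 difference was -0.019 (SE 0.14, 95% interval -0.35 to 0.31, limma adjusted p = 0.972; 0.16 when rescaled by the median of ratios). GMPS measured 50.3, 45.2 and 51.0 TPM in core samples and 57.0, 59.0 and 41.8 TPM in margin samples (log2 difference -0.090, SE 0.16, limma adjusted p = 0.844; 0.086 when rescaled by the median of ratios). IMPDH1, the isoform found at low levels in most tissues, measured 35.9, 33.8 and 31.7 TPM in core samples and 49.9, 44.5 and 39.9 TPM in margin samples, where every TC value was below every TM value (log2 difference -0.39, SE 0.14, limma adjusted p = 0.235). IMPDH2 exceeded IMPDH1 11.5, 14.8 and 13.4 times in core samples and 10.5, 9.0 and 10.8 times in margin samples. This ratio, which does not depend on the scaling between samples, was higher in each TC sample than in each TM sample. The log2 difference was 0.38, with an exact permutation p of 0.1 (two-sided, adjusted p = 0.3 over 3 ratios), the smallest p that 3 against 3 samples allow.

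**Figure D2:**
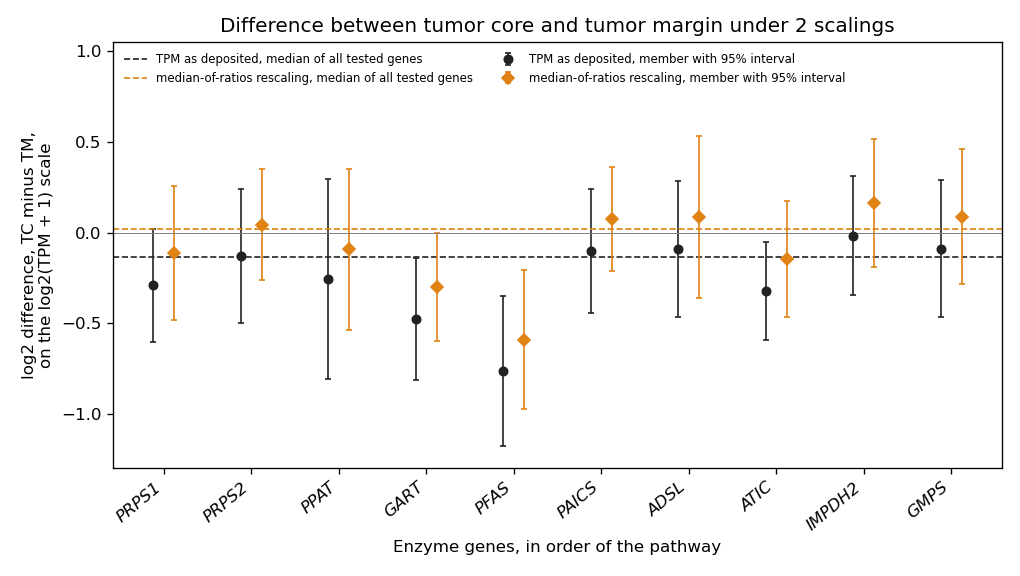
Log2 difference (core minus margin, from log2(TPM + 1)) of each enzyme with its 95% interval, for TPM as deposited in black and after median-of-ratios rescaling in orange, with the median of all tested genes as a dashed line of the same color. The intervals of PFAS and GART lie below 0 under both scalings, the latter only just after rescaling, and those of PRPS1, PRPS2, PPAT, PAICS, ADSL, IMPDH2 and GMPS span 0 under both.

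The makeup of the set within a sample was then examined, by subtracting from each enzyme's log2 TPM the mean of the other 9 in the same sample. By construction the differences between regions on this scale balance over the 10 enzymes, so some must be higher when others are lower. On this scale PFAS was at -2.18, -1.89 and -2.05 in TC and -1.33, -1.58 and -1.41 in TM. GART was at -0.055, -0.26 and -0.22 in TC and 0.12, -0.038 and 0.13 in TM. IMPDH2, whose own log2 difference was -0.019 on TPM as deposited, went the other way. It was at 3.16, 3.45 and 3.27 in TC and 3.06, 2.88 and 3.13 in TM. These 3 of 10 enzymes had groups that did not overlap, 2 lower and 1 higher in TC, where 7.38% of all genes, set against the same mean, were lower and 12.9% higher without overlap. ATIC and PRPS1 had groups that overlapped (differences of -0.070 and -0.036). PRPS2, PAICS, ADSL and GMPS stood 0.14 to 0.19 higher in TC on this scale, with overlapping groups, and PPAT differed by -0.022.

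**Figure D3:**
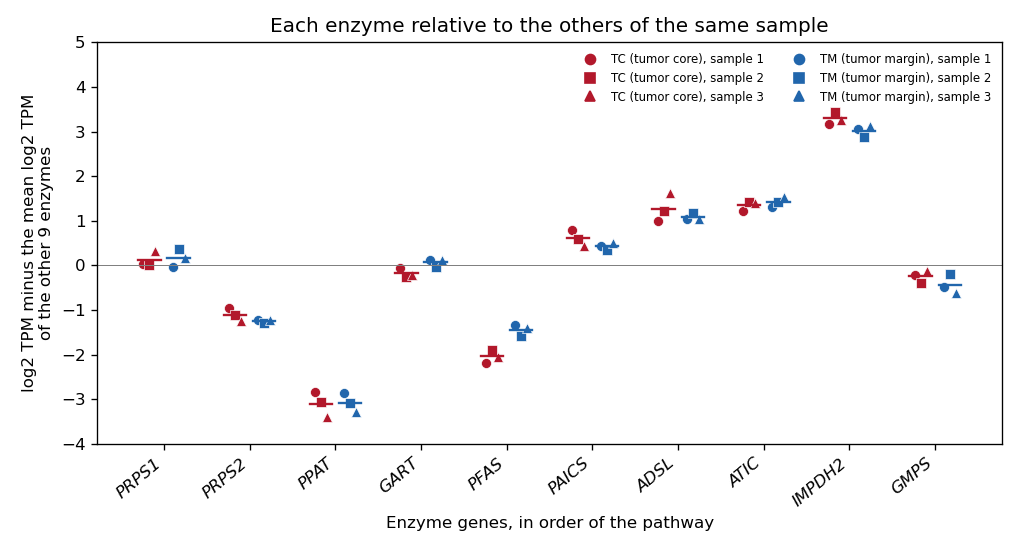
Log2 TPM of each enzyme minus the mean log2 TPM of the other 9 enzymes in the same sample, with 1 point per sample, TC in red, TM in blue and a bar at each group mean (n = 3). PFAS and GART lie lower and IMPDH2 lies higher in TC than in TM without overlap. Differences on this scale balance over the enzymes by construction.

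TM sample 1 had the highest value of 7 of the 10 enzymes, TM sample 2 of 2 and TC sample 3 of 1. The mean log2(TPM + 1) of the enzymes was 5.88, 5.89 and 5.83 in TC samples 1, 2 and 3 and 6.31, 6.09 and 5.97 in TM samples 1, 2 and 3. The TM samples were more spread than the TC samples, and TM sample 3 lay nearest to TC. Across the 6 samples, each enzyme was correlated with the mean of the other 9, also on the log2(TPM + 1) scale. The values of the samples share the region difference and the scaling to a total. Pearson's r was highest for GART (0.91), PFAS (0.87) and ATIC (0.85) and lowest for ADSL (0.33) and IMPDH2 (0.42). Of the other 13851 genes tested, those most like the mean profile of the enzymes on this scale were DOHH (r = 0.993), EXO1 (0.992) and TTLL12 (0.990). DOHH, the deoxyhypusine hydroxylase, measured 14.7, 14.4 and 14.5 TPM in core samples and 23.3, 18.7 and 16.3 TPM in margin samples. EXO1, an exonuclease of DNA repair, measured 7.09, 6.81 and 6.50 TPM in core samples and 14.3, 9.99 and 8.79 TPM in margin samples. With so few samples such values are common, and 384 genes (2.77%) had an r over 0.9.

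The genes around the pathway were described from lists drawn up by function. The PRPP synthetase partners, which bind the synthetase, had 0 of 2 tested members called. PRPSAP1 measured 33.5, 35.4 and 39.1 TPM in core samples and 54.0, 51.1 and 41.7 TPM in margin samples, without overlap (log2 difference -0.43, SE 0.15, limma adjusted p = 0.217), and PRPSAP2 had a difference of -0.14 (SE 0.16). Of 7 tested genes of the AMP and GMP branch, 0 were called and the median difference was -0.18. All 7 differences were under 0, as were 67% of all genes. AMPD2, the AMP deaminase that returns AMP to IMP, measured 45.8, 57.6 and 52.5 TPM in core samples and 72.5, 78.3 and 67.8 TPM in margin samples (log2 difference -0.48, SE 0.14, limma adjusted p = 0.148). ADSS2, the adenylosuccinate synthase of most tissues, had a difference of -0.11 (SE 0.22).

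Of 7 tested genes of purine salvage 0 were called, 5 had differences above 0 and their median was 0.034, beside -0.14 for all genes. HPRT1, which recovers hypoxanthine and guanine, measured 82.7, 77.3 and 93.8 TPM in core samples and 91.9, 85.5 and 81.5 TPM in margin samples (log2 difference -0.031, SE 0.13, limma adjusted p = 0.940). APRT, which recovers adenine, measured 145.6, 172.9 and 180.6 TPM in core samples and 176.2, 177.3 and 138.4 TPM in margin samples (log2 difference 0.024, SE 0.15, limma adjusted p = 0.965). PNP, which splits inosine and guanosine, measured 161.8, 153.8 and 204.8 TPM in core samples and 253.0, 245.2 and 191.2 TPM in margin samples (log2 difference -0.40, SE 0.16, limma adjusted p = 0.273). Of 9 tested purine nucleotide kinases 0 were called, 8 had differences above 0 and their median was 0.079. AK4, a mitochondrial adenylate kinase, was the member with an unadjusted p under 0.05 here, and measured 45.1, 44.6 and 32.3 TPM in core samples and 30.0, 30.8 and 31.0 TPM in margin samples (log2 difference 0.38, SE 0.17, limma adjusted p = 0.307). The enzymes that supply formyl groups had 0 of 8 tested genes called and a median of -0.13. MTHFD1, the cytosolic source of formyl-tetrahydrofolate used by GART and ATIC, measured 53.1, 64.0 and 59.4 TPM in core samples and 85.3, 76.0 and 69.4 TPM in margin samples, without overlap (log2 difference -0.38, SE 0.14, limma adjusted p = 0.233).

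**Figure D4:**
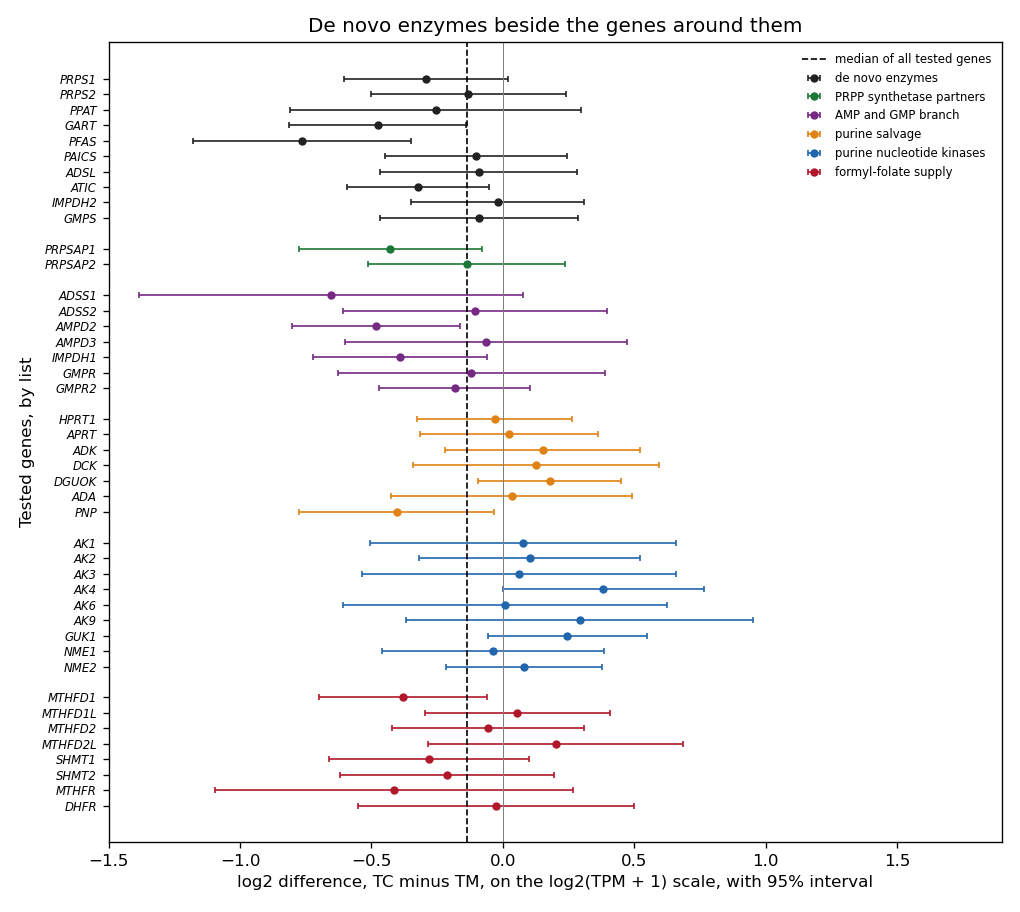
Log2 difference (core minus margin, from log2(TPM + 1)) with 95% interval for the 10 de novo enzymes and the tested genes of 5 lists around them, with the median of all tested genes (-0.14) as a dashed line. The de novo enzymes and the AMP and GMP branch lie to the left of 0, while 5 of 7 salvage genes and 8 of 9 kinases lie to the right. Of all tested genes 67% lie to the left, and none of the genes shown was called. After median-of-ratios rescaling, which is not shown here, 5 of the 10 enzymes lie to the left.

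A list of 15 proliferation genes lay in the same direction as PFAS and GART. It had 0 genes called, 13 differences under 0 and a median of -0.39. Of all genes 67% were under 0, and their median was -0.14. The summed TPM of the list was 983 to 1118 in TC and 1508, 1435 and 1102 in TM samples 1, 2 and 3. MCM3, a subunit of the replicative helicase, measured 73.6, 70.6 and 74.2 TPM in core samples and 111.9, 108.0 and 91.4 TPM in margin samples (log2 difference -0.50, SE 0.13, limma adjusted p = 0.121). TOP2A had a difference of 0.34 (SE 0.37). The list of 12 hypoxia genes, whose sums overlapped between regions, lay mostly in the other direction. It had 0 genes called, 11 differences above 0, 1 under 0 and a median of 0.30. The part of proliferation, hypoxia and host transcripts in the differences of the enzymes was not tested. After median-of-ratios rescaling, 2 of 10 enzymes (PFAS and GART) had an unadjusted p under 0.05 and were lower in TC, where 7.65% of all genes did so, and 0 of 10 were called.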

How the data were processed

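RNA-seq of 3 TC and 3 TM samples was analysed from the deposited TPM matrix. The authors trimmed reads with SeqPrep and Sickle, aligned them with HISAT2 to hg38, assembled transcripts with StringTie and estimated abundances with RSEM, and deposited TPM values per gene and sample. The annotation release and a step that removes mouse reads are not given in the sources used here. Counts were not used here, so limma 3.58.1 (R 4.3.3, with trend) was applied to log2(TPM + 1) in place of a count model, and a fold change on this scale understates the change of low genes. Annotated genes that reached 1 TPM in 3 or more of 6 samples were tested (13861), two-sided, and called at an adjusted p under 0.05. Ratios of 2 genes within a sample were compared by exact permutation. The fit was tested on simulated data. Genes were named by rule: all members, 7 fixed neighbours (IMPDH1, HPRT1, APRT, PRPSAP1, PRPSAP2, ADSS2 and MTHFD1), genes of the 5 neighbour lists with an unadjusted p under 0.05, and the 3 genes most like the members' mean. MCM3, TOP2A, CD68, CSF1R and the MDA-MB-231 markers were chosen outside it, after values were seen. The markers low in MDA-MB-231 were also named outside it, as a whole list. The members and lists were chosen with earlier results of these data known. Gene positions and overlaps were taken from GENCODE 29, whose identifiers cover 96.3% of the annotated genes. Alternatives covered the pseudocount, filter, scaling, moderation, replicate block and each sample left out. The precision is limited by 3 samples per group.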

Additional observations from a re-analysis of the deposited data

How the results depend on the processing

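None of the 10 enzymes was called under any of the 17 alternatives. The adjusted p of PFAS ranged from 0.0747 (without mitochondrially encoded genes) to 0.386. PRPS1, PPAT, GART, PFAS and ATIC kept a difference under 0 throughout, and the cause of the changes below was not tested. Over all genes 19 were called, against 7 with a pseudocount of 0.1, 32 with no filter on low values, 6 after median-of-ratios rescaling, 4 after quantile normalization, 9 without mitochondrially encoded and ribosomal protein genes, 12 for empirical Bayes without a trend and 47 for its robust form. After median-of-ratios rescaling 5 enzymes were lower in TC with a median of -0.0253, and the log2 differences turned for PRPS2 (0.0432), PAICS (0.0759), ADSL (0.0867), IMPDH2 (0.161), GMPS (0.0863), HPRT1 (0.147), PRPSAP2 (0.0361) and ADSS2 (0.067). Quantile normalization gave a median of -0.0607 and turned PRPS2 (0.0465), GMPS (0.0365), HPRT1 (0.0522), PRPSAP2 (0.043) and ADSS2 (0.0733). Removal of mitochondrially encoded genes turned APRT (-0.0288), and removal of ribosomal protein genes as well turned IMPDH2 (0.00392). Relative to the mean of the other enzymes, an alternative chosen after seeing the data, PRPS2 (0.142), PAICS (0.178), ADSL (0.189), IMPDH2 (0.271) and GMPS (0.19) turned. Differences on that scale balance over the 10 enzymes by construction, so some had to turn whatever the data.

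Deviations from the group means had r of 0.211, -0.121 and -0.165 for samples of the same number. The number was to be taken as a pair only if every r was over 0.1, so it was not. With so few samples these r are bound to each other and cannot settle whether the samples were paired. The study used paired tests of core against margin in other assays. With the replicate block 1 gene was called over all genes and 0 enzymes. With the block and median-of-ratios rescaling, also chosen after seeing the data, 1 gene was called, and 5 enzymes were lower in TC with the same median and the same turned differences as after rescaling alone. Of the 3 ratios, exact sign flips with the replicate block gave p = 0.5 for PRPS1 to PRPS2, 0.25 for IMPDH2 to IMPDH1 and 0.25 for PAICS to PPAT. The smallest two-sided p that sign flips of 3 pairs allow is 0.25.

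Leaving out each sample in turn gave 1 to 17 genes called (4 without TC sample 1, 1 without TC sample 3, 1 without TM sample 1 and 9 without TM sample 2) and 8 to 10 enzymes lower in TC. The median of the enzymes ranged from -0.298 (without TM sample 3) to -0.0576 (without TM sample 1). The log2 difference ranged from -0.227 to 0.0288 for ADSL, from -0.103 to 0.0928 for IMPDH2, from -0.107 to 0.0309 for HPRT1, from -0.0928 to 0.117 for APRT and from -0.266 to 0.0838 for ADSS2. The ratios did not change direction, with ranges of -0.316 to -0.0505 for PRPS1 to PRPS2, 0.298 to 0.481 for IMPDH2 to IMPDH1 and 0.09 to 0.307 for PAICS to PPAT. TPM carries no read number, so what depth limits is unknown.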
